A study of Mus musculus with 12 samples.

Results

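The 45 genes described here lie in a segment of mouse chromosome 15, from Trps1 to Myc and Pvt1 (mm10, chr15:50654752-62378096, a span of 11.7 Mb). The 45 are named genes of the 54100 features present in the count files of all 12 libraries of the series, and 152 such features lie in the segment. The list was drawn up because many of them had higher counts in the 4 libraries of a CK1α overexpression experiment than in the 8 other libraries, so that ratio is given as a description and is not tested. CK1α is a serine/threonine kinase encoded by Csnk1a1.

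The libraries are polyA-selected RNA from C57BL/6J mouse cells, 2 for each of 6 groups. A first set carries the label BMDM (bone marrow-derived macrophages) with a TREX knockout, and compares SSTC3, a compound known as a CK1α activator, with DMSO. The knockouts are named TREX1 and TREX2 for the SSTC3 libraries and TREX3 and TREX4 for the DMSO libraries, so whether these 4 are the same line is not settled by the labels. If the lines differ, line and compound cannot be told apart in the SSTC3 comparison. The second set, labelled MEF (mouse embryonic fibroblasts), compares CK1α overexpression (CK1a_OV) with its control (OV_control). The third, also labelled MEF, compares CK1α knockdown by siRNA (CK1a_siRNA) with its control (knockdown_control). The sources used here give no dose, time, construct or siRNA sequence.

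The genes of the segment have unrelated tasks. Rad21 is the subunit that closes the cohesin ring around DNA, Eif3h belongs to the translation initiation factor eIF3, and Taf2 and Med30 belong to TFIID and Mediator, which help RNA polymerase II to start transcription. Ext1 and Has2 make the glycans heparan sulfate and hyaluronan. At the distal end lies Myc, a transcription factor that growth signals induce within a short time and whose RNA is short-lived, followed by the long non-coding RNA Pvt1. The neighbouring pseudokinase gene Trib1 is also known to respond quickly to signals.

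Some features of the libraries bear on all that follows. Totals ran from 16063627 to 19427506 counts. Csnk1a1 had 172 and 169 CPM (counts scaled to a common library total) with CK1a_siRNA against 325 and 354 CPM in the control, but 229 and 244 CPM in the libraries labelled CK1a_OV against 238 and 235 CPM in theirs, so the direction of that comparison rests on the label. In the BMDM-labelled set, 21 macrophage markers summed to 10.2 to 13.2 CPM, with 10 of them at 0 in all 4 libraries, and 14 fibroblast markers summed to 8802 to 10031 CPM. The overexpression files list 55401 features, the others 54532, and the overexpression files hold no mitochondrial counts (1.23% to 1.98% elsewhere). Among the shared features, 9 had at least 10 CPM in the overexpression set and 0 counts in the 8 other libraries, and 47 nuclear ones the reverse, and none of them is a member. A difference of gene models between the sets therefore cannot be told apart from a difference of RNA for a single gene.

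Most members were several times higher in the overexpression set, in its control libraries as much as in the treated ones. Of the 45, 38 had a mean of at least 1 CPM over the 12 libraries. Their median log2 ratio of the overexpression set to the 8 others was 2.15, a 4.45-fold difference, beside 0.08 for all 13574 genes at that level (means plus 0.5 CPM before the ratio). Taken 1 library at a time, the median was 2.16 and 2.18 for CK1a_OV and 2.15 and 2.23 for OV_control. In 29 of these 38 members, and in 30 of all 45, each of the 4 overexpression-set libraries lay above each of the 8 others, a pattern shown by 25.0% of all genes at 1 CPM or more. None lay below all others (11.4% of all genes). A log2 ratio of at least 3 was found in 13 of the 38, against 1.62% of all genes. These counts describe how the list was made. In bulk RNA, more cells of a kind and more RNA per cell cannot be told apart. Of the 38, 2 reached 1 CPM only through the overexpression set (Samd12 and Colec10) and 3 only through the others (Enpp2, Fam83a and Klhl38), which fixes their direction.

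Summed, the members took up 1.41% to 1.46% of all counts in the overexpression set and 0.207% to 0.285% in the other libraries. Scaling by TMM factors, which use the bulk of genes in place of library totals, moved the median of all genes by -0.21 and that of the members to 1.98, so the members stood 2.07 above all genes by totals and 2.10 by TMM.

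**Figure D1:**
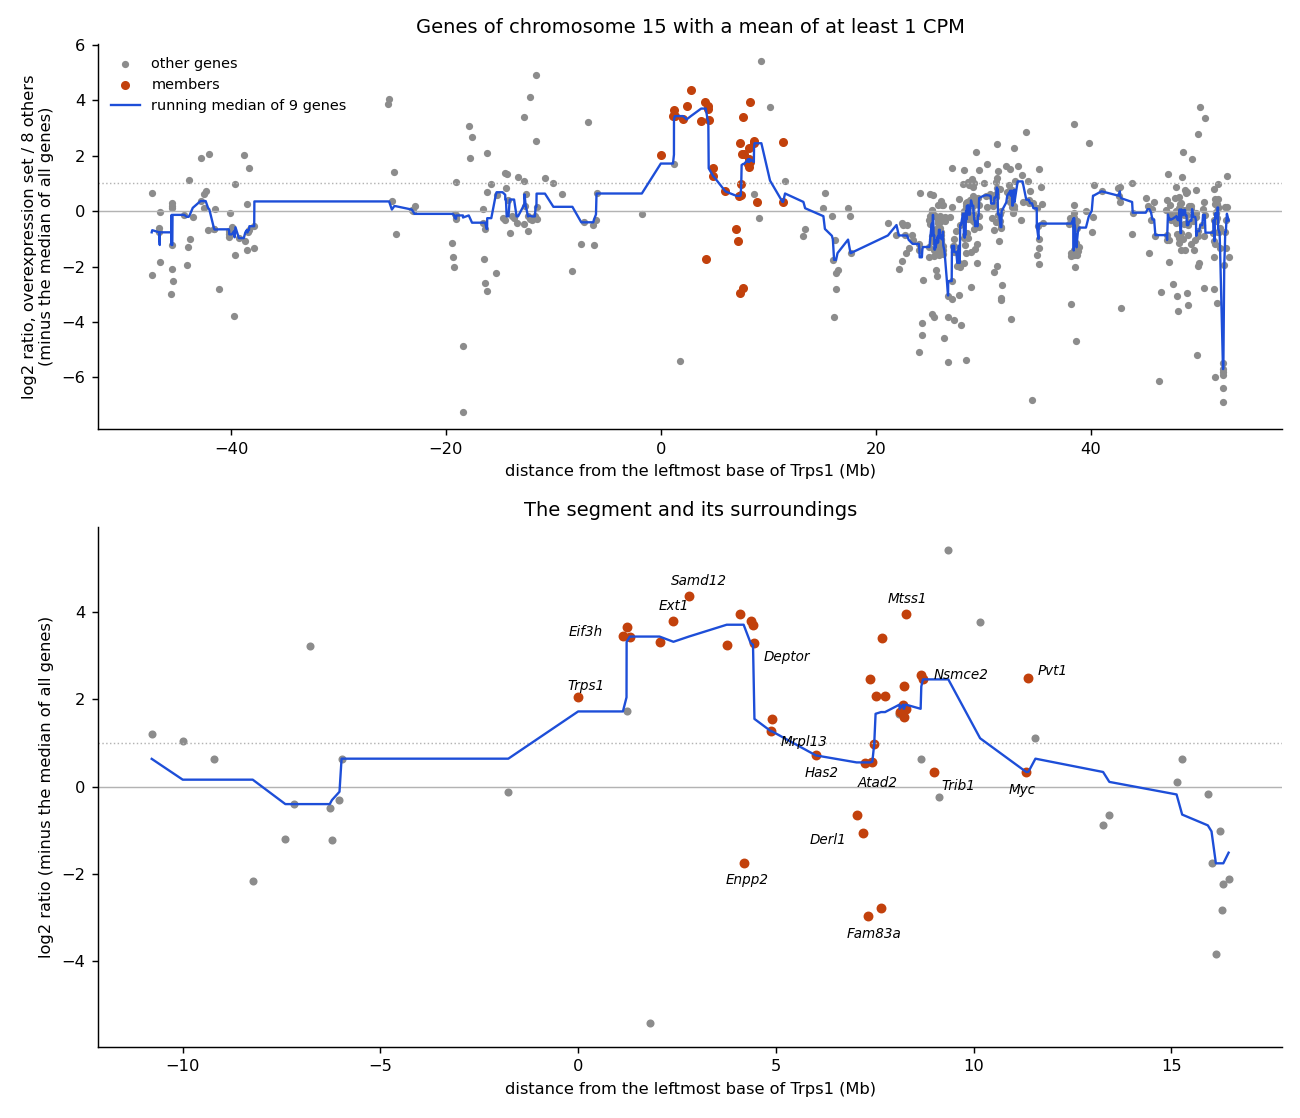
Log2 ratio of the overexpression set to the 8 other libraries for genes of chromosome 15 at a mean of 1 CPM or more, minus the median of all genes, against distance from Trps1 in Mb. Upper panel, the whole chromosome. Lower panel, the segment and its surroundings. Orange points are members, grey points other genes, the blue line is the running median of 9 genes, and the dotted line marks 2-fold. The line runs above the dotted line in a proximal and a distal stretch of the segment, with a dip between them.

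Along the chromosome the raised ratio came in a proximal and a distal stretch. With the running median of 9 neighbouring genes and a threshold of 2-fold, the proximal stretch ran from Trps1 to Mtbp (chr15:50654752-55626423, 4.97 Mb, 17 genes of which 15 are members) with a median log2 ratio of 3.31 above that of all genes. The distal stretch ran from Fbxo32 to Fam84b (chr15:58175879-60853778, 2.68 Mb, 18 genes of which 13 are members) with a median of 1.97. The 2.55 Mb between Mtbp and Fbxo32 fell below the threshold. Over all autosomes and the X chromosome, the same procedure found 6 runs of 10 or more genes, and the 2 of this segment had the highest medians. As the segment was chosen by this ratio, that rank is a description. The next of the 6 were on chromosome 2 (1.91) and chromosome 14 (1.49, a run of 25 genes). Some shorter runs had higher medians than the distal stretch, such as 2.88 on chromosome 16 (7 genes) and 2.95 on chromosome 1 (5 genes). Runs of 10 or more genes are not particular to this contrast. The ratio of the BMDM-labelled set to the knockdown set gave 22 of them, the highest at 2.85, and none held a member.

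Outside the segment the ratio dropped at both ends. The last gene at 1 CPM or more before Trps1 is the processed pseudogene Gm7517 (chr15:48888353-48890024). It had a log2 ratio of -0.03, and Trps1 itself had 2.13. The 10 genes before the segment had a median of -0.27 and a range of -2.08 to 3.31, the highest being Tmem74. At the other end Myc had 0.42, Pvt1 2.57 and the first gene beyond, Fam49b (starting at chr15:63929097), -0.80. The gaps before Trps1 and beyond Pvt1 hold no gene at this level, so where in them the ratio changes is not known. The 10 genes beyond had a median of -0.87 and a range of -3.75 to 0.72. The other 520 genes of the chromosome at this level had a median of -0.23.

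The edges moved with the way they were drawn. Against the knockdown set alone, from the control libraries alone, or without either SSTC3 library, the proximal stretch reached on to Has2. Against the BMDM-labelled set alone it ended at Dscc1, and the distal stretch then took in Myc and Pvt1 and ended at the pseudogene H2afy3, which lies within Pvt1. A running median of 5 genes broke the distal stretch into Klhl38 to Washc5 and Fam84b to Pvt1. With a threshold of 1.5-fold the proximal stretch began at Sybu, 1 of the 10 genes before the segment. A single segment fitted by least squares spanned 75 genes from Ncald to H2afy3 (chr15:37366175-62219332), so the outer edges depend on the method.

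**Figure D2:**
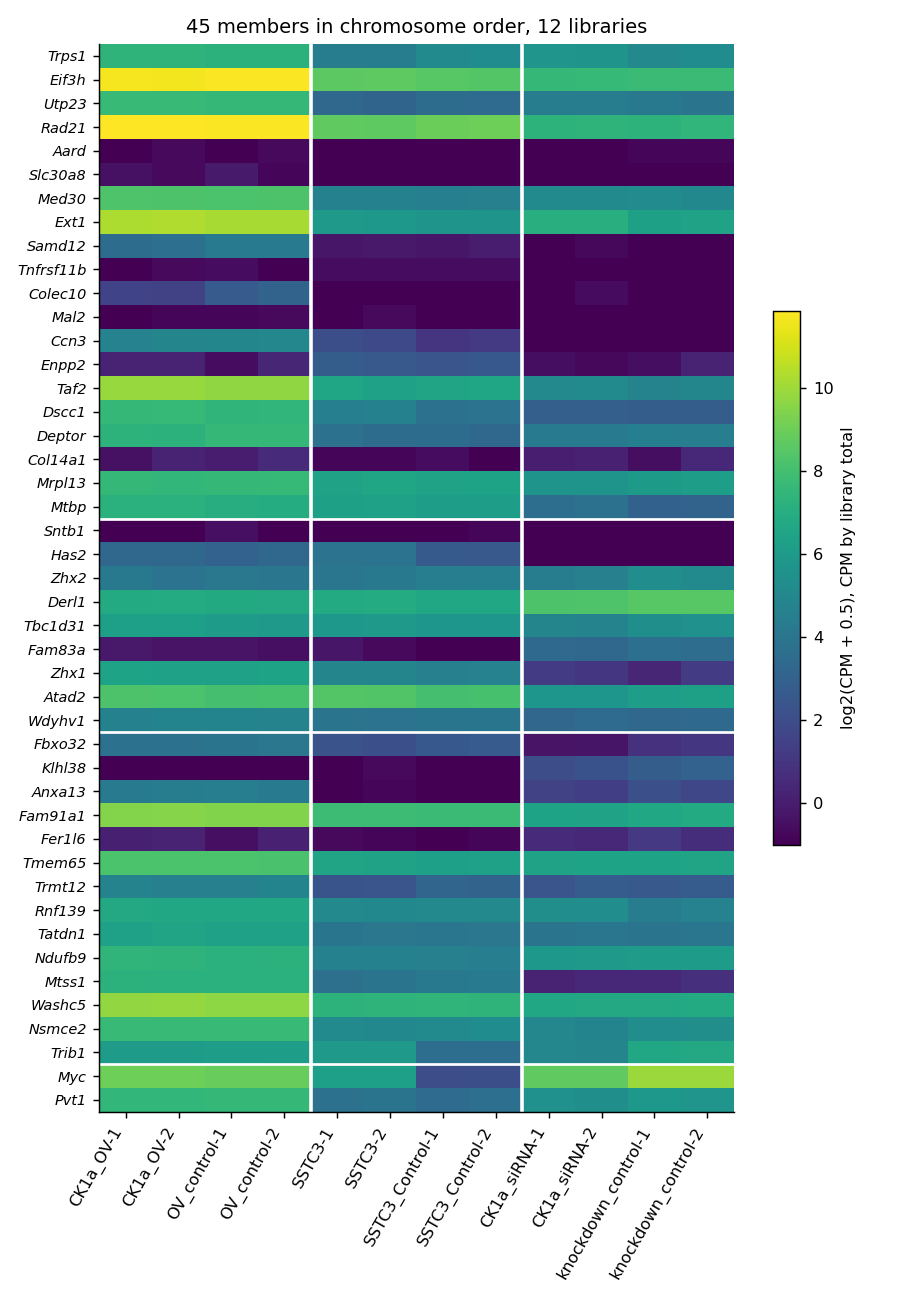
Levels of the 45 members in chromosome order (rows) in the 12 libraries (columns), as log2(CPM + 0.5) by library total. White lines separate the sets and the stretches. Most rows are brightest in the 4 left columns, and the rows of Derl1, Fam83a and Klhl38 are brightest in the 4 right ones.

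Of the 20 members of the proximal stretch, 15 were at 1 CPM or more, with a median log2 ratio of 3.52, and in 14 of the 15 the overexpression set lay above all other libraries. Eif3h had 3234 and 3207 CPM with CK1a_OV, 3465 and 3464 CPM with OV_control, 387, 400, 365 and 343 CPM in the BMDM-labelled set (SSTC3 first) and 187, 193, 214 and 218 CPM in the knockdown set (siRNA first). The groups of the overexpression set did not overlap with any other, and the set mean was 11.6 times that of the 8 others. Rad21 had 3695, 3650, 3471 and 3460.5 CPM in the overexpression set in the same order, 424, 399, 502 and 509 CPM in the BMDM-labelled set, and 158, 165, 157 and 174 CPM in the knockdown set. Its lowest overexpression-set library was 6.80 times its highest other library.

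Ext1, a polymerase of the heparan sulfate chain, averaged 1203 ± 64.1 CPM in the overexpression set (SD over 4 libraries), 54.6 CPM in the BMDM-labelled set and 108 CPM in the knockdown set. Taf2 averaged 890 ± 59.1 CPM against 89.7 and 30.4 CPM, in the same order. Med30 averaged 310 ± 9.84 CPM against 24 and 33.9 CPM. The levels of these genes in the overexpression set varied little beside the distance to the other sets. Utp23, which acts in ribosomal RNA processing, Dscc1, a subunit of an alternative replication clamp loader, and Deptor, an inhibitor of mTOR, had log2 ratios of 3.73, 3.79 and 3.37. The transcriptional repressor gene Trps1, at the edge, was lower, with 157 ± 5.08 CPM against 28.2 and 43.1 CPM.

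Some genes of the proximal stretch had few counts elsewhere. Samd12 and Colec10 reached 1 CPM only through the overexpression set, which fixes their direction. Samd12 averaged 15.2 CPM in the overexpression set, with 27 counts in the 4 libraries labelled BMDM and 2 in the knockdown set. Colec10, a secreted collectin, averaged 4.73 CPM there and had 0 counts in the BMDM-labelled set, at least 107-fold lower when a floor of 3 counts over those 4 libraries is taken, and 3 counts in the knockdown set. Ccn3, a matricellular protein gene, averaged 28.2 CPM against 2.52 CPM in the BMDM-labelled set and 0 counts in the knockdown set, where the same floor gives at least 680-fold.

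The exception among the 15 was Enpp2, which encodes the lysophosphatidic acid-producing enzyme autotaxin. Its level was 4.81 to 6.36 CPM with SSTC3 or DMSO, 0.17 to 0.81 CPM with CK1a_OV or its control and 0.10 to 0.67 CPM with siRNA or its control. Enpp2 reached 1 CPM only through the BMDM-labelled set, which fixes its direction. A further 5 members of this stretch were below 1 CPM, namely Aard, the pancreatic zinc transporter gene Slc30a8, the osteoprotegerin gene Tnfrsf11b, Mal2 and the collagen gene Col14a1. Their highest single library was Col14a1 at 0.93 CPM. Against the 8 other libraries pooled, the ratio stepped down near the end of the stretch. Deptor was 10.6 times higher than in them. The mitochondrial ribosome gene Mrpl13, 0.27 Mb further on, was 2.56 times higher, and Mtbp, a gene of replication initiation, 3.12 times higher. Over the knockdown set alone Mtbp showed no such step. Its group means were 12.9 CPM with CK1a_siRNA, 7.77 CPM with knockdown_control, 146 CPM with CK1a_OV and 125 CPM with OV_control. Those of Deptor were 19.3, 22.4, 155 and 187 CPM in that order. In the BMDM-labelled set Mtbp averaged 80.0 CPM with SSTC3 and 72.7 CPM with DMSO.

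Between the stretches, the 8 members at 1 CPM or more had a median log2 ratio of 0.64, and 3 of them lay above all other libraries in the overexpression set. Here the sets differed in both directions. Zhx1, a zinc finger and homeobox gene, averaged 84.3 CPM in the overexpression set, 26.5 CPM in the BMDM-labelled set and 1.6 CPM in the knockdown set. Its paralog Zhx2 averaged 16.5, 19.6 and 29.6 CPM in that order, and the ranges of the sets overlapped. Derl1, which serves the removal of misfolded proteins from the endoplasmic reticulum, averaged 113, 108 and 339 CPM and so was highest in the knockdown set.

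Fam83a belongs to a family of proteins that bind CK1 kinases. Knockdown-set libraries had 9.25 to 12.3 CPM of it, those of overexpression 0.23 to 0.42 CPM and those of SSTC3 and DMSO 0 to 0.35 CPM. Fam83a thus reached 1 CPM only through the knockdown set, which fixes its direction. Atad2, a bromodomain ATPase gene, and Tbc1d31, of centriolar satellites, had log2 ratios of 0.66 and 0.63. The ratio of Atad2 over the BMDM-labelled set alone was -0.06. Has2, the hyaluronan synthase gene, had 7.68 to 9.71 CPM in the overexpression set, within the 5.58 to 14.5 CPM of the BMDM-labelled set, and 0 counts in the knockdown set. Wdyhv1, which encodes an N-terminal glutamine amidase, had 1.06, and Sntb1 was below 1 CPM.

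In the distal stretch, 13 of 14 members were at 1 CPM or more, with a median log2 ratio of 2.15, and 11 of the 13 lay above all other libraries in the overexpression set. Mtss1, a membrane-bending adaptor gene, stood highest with 147 ± 2.71 CPM (SD over 4 libraries) against 16.2 CPM in the BMDM-labelled set and 0.92 CPM in the knockdown set. Washc5, of the endosomal WASH complex, averaged 852 ± 56.7 CPM against 165 and 108 CPM. Nsmce2, the SUMO ligase of the SMC5/6 complex, averaged 203 ± 3.64 CPM against 34.9 and 34.3 CPM. For Nsmce2 the overexpression set was 5.82 times the BMDM-labelled set and 5.94 times the knockdown set. A like evenness was seen for Tatdn1 (5.19 and 5.46 times), the mitochondrial membrane protein gene Tmem65 (3.59 and 3.36 times) and the ubiquitin ligase gene Rnf139 (3.19 and 3.29 times), whereas Mtss1 was 9.10 and 161 times higher.

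Fam91a1, of vesicle tethering at the Golgi, the tRNA-modifying gene Trmt12 and the complex I gene Ndufb9 had log2 ratios of 2.15, 1.96 and 1.86. Fbxo32, an F-box gene of muscle protein breakdown, had 2.16. Anxa13, an annexin gene, averaged 20.8 CPM in the overexpression set and 2.81 CPM in the knockdown set, with 1 count in the 4 libraries labelled BMDM. Klhl38 went the other way, with 0 counts in the overexpression set, 2 in the BMDM-labelled set and 3.55 to 7.79 CPM in the knockdown set. Klhl38 reached 1 CPM only through the knockdown set, which fixes its direction, and 65% of its exon bases are shared with the antisense gene Gm15943. Fer1l6 was below 1 CPM. Trib1, at the end of the stretch, averaged 69.2, 36.5 and 67.4 CPM in the overexpression set, the BMDM-labelled set and the knockdown set, and the overexpression libraries lay between those of the other groups.

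Not every gene inside the raised stretches took part. Sqle, the squalene epoxidase gene of cholesterol synthesis, is no member but lies between Mtss1 and Washc5. It averaged 252 CPM in the overexpression set, 210 CPM in the BMDM-labelled set and 96.9 CPM in the knockdown set, a log2 ratio of 0.71 beside 4.03 and 2.64 for its neighbours. Fam84b, further on, had 3.86. 4933412E24Rik averaged 22.0 CPM in the overexpression set and is listed at 0 in the 8 other libraries. Gm10020, a processed pseudogene in the proximal stretch, had a ratio of -5.33, with 83.0 CPM in the knockdown set.

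Myc had a different order from its neighbours. Its libraries had 3.58 and 3.68 CPM with DMSO, 77.1 and 76.7 CPM with SSTC3, 424 and 426 CPM with CK1a_siRNA, 471 and 465 CPM with OV_control, 512 and 511 CPM with CK1a_OV and 968 and 955 CPM with knockdown_control. No 2 of these 6 groups overlapped. Against the other 8 libraries the log2 ratio was 0.42, but it was -0.50 against the knockdown set alone and -0.04 when only control libraries were used. Pvt1, which starts beside Myc, had 183, 180, 190 and 187 CPM in the overexpression set (CK1a_OV first), 14.0, 15, 10.8 and 12.3 CPM in the BMDM-labelled set (SSTC3 first) and 44.9, 42.4, 56.5 and 51.2 CPM in the knockdown set (siRNA first). Pvt1 was thus highest in the overexpression set, where Myc was not.

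Per kilobase of exon, a scale on which genes can be compared, Eif3h was the most abundant member in the overexpression set at 2074 RPKM (CPM per kilobase), before Rad21 at 843, Med30 at 262, Washc5 at 201, Myc at 180 and Ext1 at 149 RPKM. In the BMDM-labelled set the first were Eif3h at 232 and Rad21 at 108 RPKM. In the knockdown set Myc came first at 255 RPKM, then Eif3h at 126 and Derl1 at 102 RPKM.

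**Figure D3:**
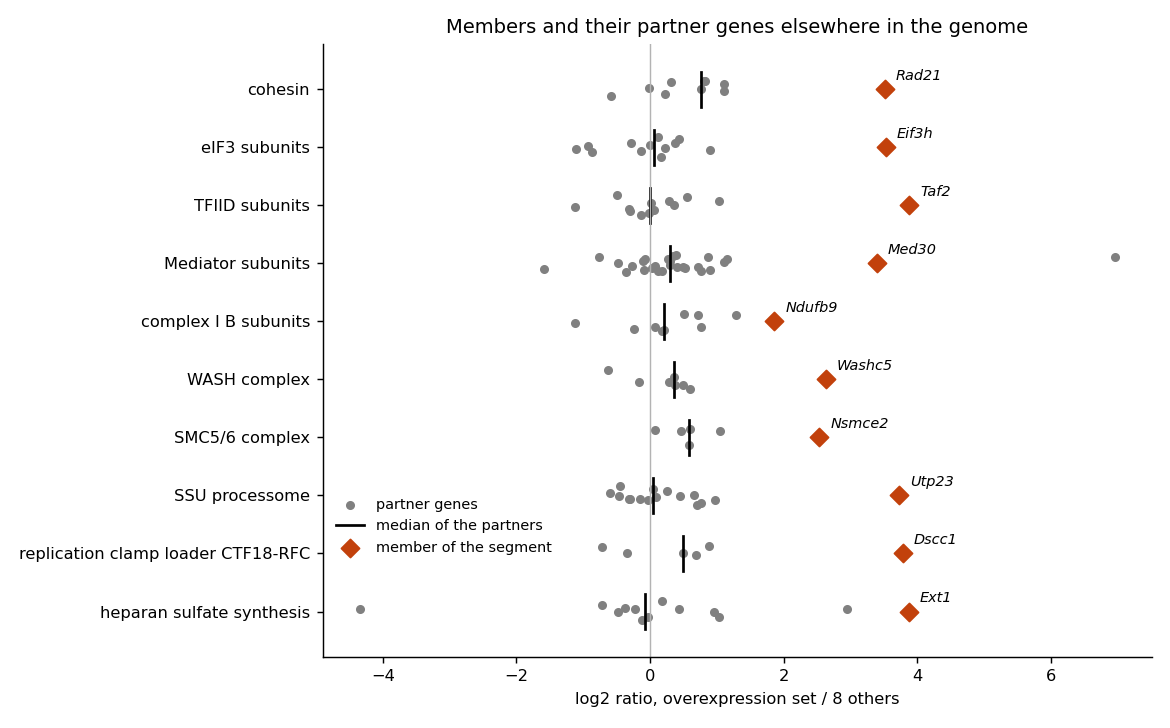
Log2 ratio of the overexpression set to the 8 other libraries for members (orange diamonds) and for the genes of the same complex or pathway elsewhere in the genome (grey points, black bar at their median). The diamonds lie to the right of the medians in each of the 10 rows, and to the right of all partners but Med10 of the Mediator row.

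The products of several members work in complexes whose other subunits are encoded elsewhere, and these were not raised alike. The 9 cohesin partners of Rad21 had a median log2 ratio of 0.77 and a range of -0.58 to 1.11, where Rad21 had 3.52. Over the knockdown set alone these partners ran from -0.08 (Stag1) to 2.86 (Stag2), where Rad21 had 4.44. Over the BMDM-labelled set alone they ran from -0.94 (Stag1) to 0.44 (Nipbl), where Rad21 had 2.96. The 12 other eIF3 subunits had a median of 0.06 and a range of -1.11 to 0.90, where Eif3h had 3.53. For TFIID the 12 partners of Taf2 had a median of 0.00 and for Mediator the 27 partners of Med30 had 0.30, with Med10 at 6.96 because it is listed at 0 in the 8 other libraries. The partners of Washc5, Nsmce2, Utp23, Dscc1 and Ndufb9 had medians of 0.36, 0.59, 0.05, 0.50 and 0.22. Genes of heparan sulfate synthesis other than Ext1 had a median of -0.08 and ran from -4.34 for Xylt1 to 2.95 for Hs6st2. Over the knockdown set alone, Ndufb7 (1.44) stood above Ndufb9 (1.34). Hs6st2 (7.92, with 0 CPM in that set) likewise stood above Ext1 (3.47). Over the BMDM-labelled set alone the order was reversed, with Ndufb7 at 1.16 and Ndufb9 at 2.70, and Hs6st2 at 1.98 and Ext1 at 4.45. As the members were chosen by this ratio, the contrast is a description.

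The members were listed by the set ratio and not by the response to treatment, though earlier results of these data were known by then. The response within each set was tested with edgeR's quasi-likelihood test, with p-values adjusted over all genes. Of the members, 30 were tested in all 3 comparisons and others in fewer. Of those tested in any, 6 passed in all 3 (Eif3h, Ext1, Mtbp, Tbc1d31, Atad2 and Myc), 11 in 2 and 15 in 1. Of all genes tested, 53.6% passed with SSTC3, 13.3% with CK1a_OV and 54.7% with knockdown. How many of all genes passed in several comparisons was not counted, so the overlap among the members is only a description. A further 8 were tested without passing (Med30, Enpp2, Col14a1, Fam83a, Wdyhv1, Anxa13, Fer1l6 and Tatdn1), and 5 had too few counts for any test.

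**Figure D4:**
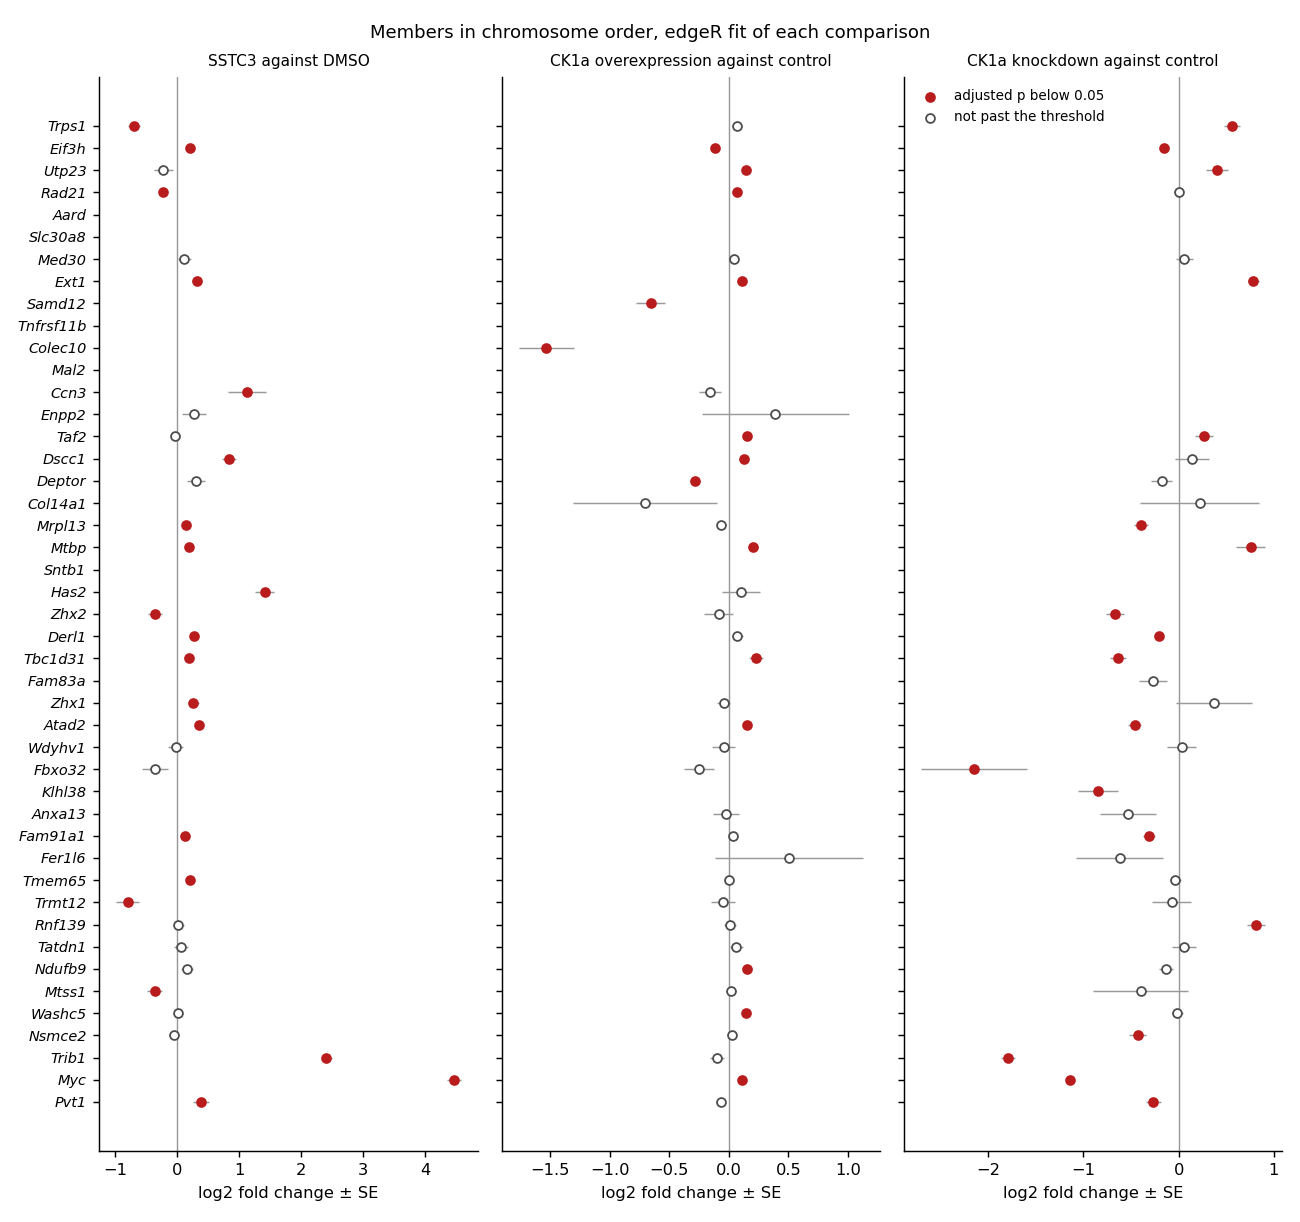
Log2 fold change ± SE of the members in the 3 comparisons, in chromosome order, 2 libraries against 2. Filled points passed an adjusted p of 0.05 and open points did not. The horizontal scales differ between panels. With SSTC3, Myc and Trib1 lie furthest right (4.46 and 2.40), and with knockdown Fbxo32, Trib1 and Myc lie furthest left (-2.15, -1.79 and -1.14).

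With SSTC3, in libraries whose knockout names also differ from those of DMSO, Myc rose more than any other member. It went from 3.58 and 3.68 to 77.1 and 76.7 CPM, a 22.0-fold rise (log2 fold change 4.46 ± 0.11, SE, n = 2 per group, adjusted p = 5.57e-112 by edgeR). Trib1 rose 5.29-fold, from 12 and 11.9 to 60.1 and 62.0 CPM (2.40 ± 0.09, adjusted p = 4.93e-73). Pvt1, beside Myc, rose by only 0.38 ± 0.13 on the log2 scale (adjusted p = 0.00836), and that call was lost without SSTC3 replicate 2 (adjusted p = 0.095) or DMSO replicate 1 (0.134).

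Has2 went with SSTC3 from 5.69 and 5.58 to 14.5 and 14.2 CPM (log2 fold change 1.41 ± 0.16, adjusted p = 3.94e-16 by edgeR) and Ccn3 from 1.47 and 1.78 to 3.77 and 3.07 CPM (1.13 ± 0.30, adjusted p = 7.23e-04). Ext1 rose by 0.31 ± 0.07, while of the 13 genes of heparan sulfate synthesis, Ext1 included, 2 were higher and 8 lower. The replication gene Dscc1 rose from 13.3 and 14.1 to 22.9 and 24.2 CPM (0.84 ± 0.11) and Atad2 by 0.36 ± 0.04.

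Trmt12 fell from 8.62 and 8.13 to 4.53 and 4.72 CPM (-0.80 ± 0.18, adjusted p = 6.36e-05 by edgeR) and Trps1 from 33.7 and 37.1 to 21.5 and 20.4 CPM (-0.70 ± 0.09, adjusted p = 7.09e-12). Rad21, Mtss1 and Zhx2 fell by 0.24, 0.37 and 0.37. The groups did not overlap in any of these genes, which adds no support, as they had passed the test with 2 libraries per group. In all, 21 of 33 tested members passed, 16 higher and 5 lower, where 53.6% of all 14151 genes passed, 27.1% higher and 26.5% lower. Of the 6 members at 100 CPM or more, 5 passed, beside 73.1% of all genes at that level. The median of the members was 0.15 and that of all genes 0.01. With library totals in place of TMM factors 12 members were higher and 5 lower. Calls lost without SSTC3 replicate 1 were Fam91a1, Mtss1, Tmem65, Zhx1 and Zhx2. Those lost without SSTC3 replicate 2 were Mrpl13, Mtbp, Pvt1, Tbc1d31 and Zhx1. Without DMSO replicate 1 the calls of Fam91a1, Mrpl13, Pvt1, Tbc1d31, Tmem65 and Zhx1 were lost, and without DMSO replicate 2 that of Tbc1d31.

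Between CK1a_OV and OV_control the members differed little. Colec10 had 2.50 and 2.38 CPM against 6.00 and 8.02 CPM, a fall of 2.89-fold (log2 fold change -1.53 ± 0.23, adjusted p = 2.45e-06 by edgeR). Samd12 fell from 18.5 and 18.5 to 11.1 and 12.5 CPM (-0.66 ± 0.12, adjusted p = 1.13e-04). Deptor fell by 0.28 ± 0.04 and Eif3h by 0.12 ± 0.02. The proximal stretch held these 4 and 6 of the 11 members that rose, among 16 tested.

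The 11 members that rose with CK1a_OV did so by 0.07 (Rad21) to 0.23 (Tbc1d31) on the log2 scale. Myc rose by 0.11 ± 0.03 (adjusted p = 0.00355 by edgeR) and Ext1 by 0.11 ± 0.02. Of 38 tested members 15 passed, where 13.3% of all 13958 genes passed, 5.78% higher and 7.57% lower. Precision differs here, as 22 of the 38 stood at 100 CPM or more, and of these 12 passed, beside 28.4% of all genes at that level. Calls lost without OV_control replicate 1 were Atad2, Dscc1, Ndufb9 and Rad21, and without OV_control replicate 2 they were Myc, Rad21 and Tbc1d31. Without CK1a_OV replicate 1 that of Ndufb9 and without CK1a_OV replicate 2 that of Dscc1 was lost.

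With knockdown, Myc and Trib1 fell. Myc had 424 and 426 CPM with CK1a_siRNA against 968 and 955 CPM (log2 fold change -1.14 ± 0.04, adjusted p = 1.39e-34 by edgeR), 2.21-fold lower. Trib1 had 30.5 and 28.8 against 102 and 108 CPM (-1.79 ± 0.07, adjusted p = 6.55e-32), 3.46-fold lower. Pvt1 fell by 0.27 ± 0.08 (adjusted p = 0.00280), and the call was lost without CK1a_siRNA replicate 2 (0.079) or knockdown_control replicate 1 (0.053).

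Fbxo32 fell from 1.31 and 1.57 to 0.31 and 0.32 CPM (-2.15 ± 0.56, adjusted p = 7.70e-04 by edgeR) and Klhl38 from 6.35 and 7.79 to 3.55 and 4.15 CPM (-0.84 ± 0.21). Zhx2 fell from 38.6 and 34.8 to 21.7 and 23.3 CPM (-0.67 ± 0.10) and Tbc1d31 from 42.5 and 44.2 to 27.8 and 26.5 CPM (-0.64 ± 0.09). Smaller falls were those of Atad2 (0.46), Nsmce2 (0.43), Mrpl13 (0.39), Fam91a1 (0.31), Derl1 (0.21) and Eif3h (0.15), the last lost without CK1a_siRNA replicate 1 or 2.

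Higher with knockdown were Ext1, at 133 and 138 against 78.1 and 82.9 CPM (0.79 ± 0.06, adjusted p = 5.21e-19 by edgeR), and Trps1, at 51.8 and 49.9 against 32.7 and 37.8 CPM (0.56 ± 0.08, adjusted p = 2.70e-08). Rnf139 rose from 21.4 and 25.2 to 40.6 and 39.3 CPM (0.81 ± 0.09), and 26% of its exon bases are shared with other genes. Mtbp rose from 7.53 and 8.01 to 12 and 13.7 CPM (0.76 ± 0.15). Utp23 and Taf2 rose by 0.41 and 0.27. The call of Utp23 was lost without knockdown_control replicate 2 and that of Taf2 without CK1a_siRNA replicate 2 or knockdown_control replicate 1. In all 19 of 35 tested members passed, 6 higher and 13 lower, where 54.7% of all 14832 genes passed, 28.3% higher and 26.4% lower. Of the 6 at 100 CPM or more, 4 passed, beside 78.7% of all genes at that level.

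**Figure D5:**
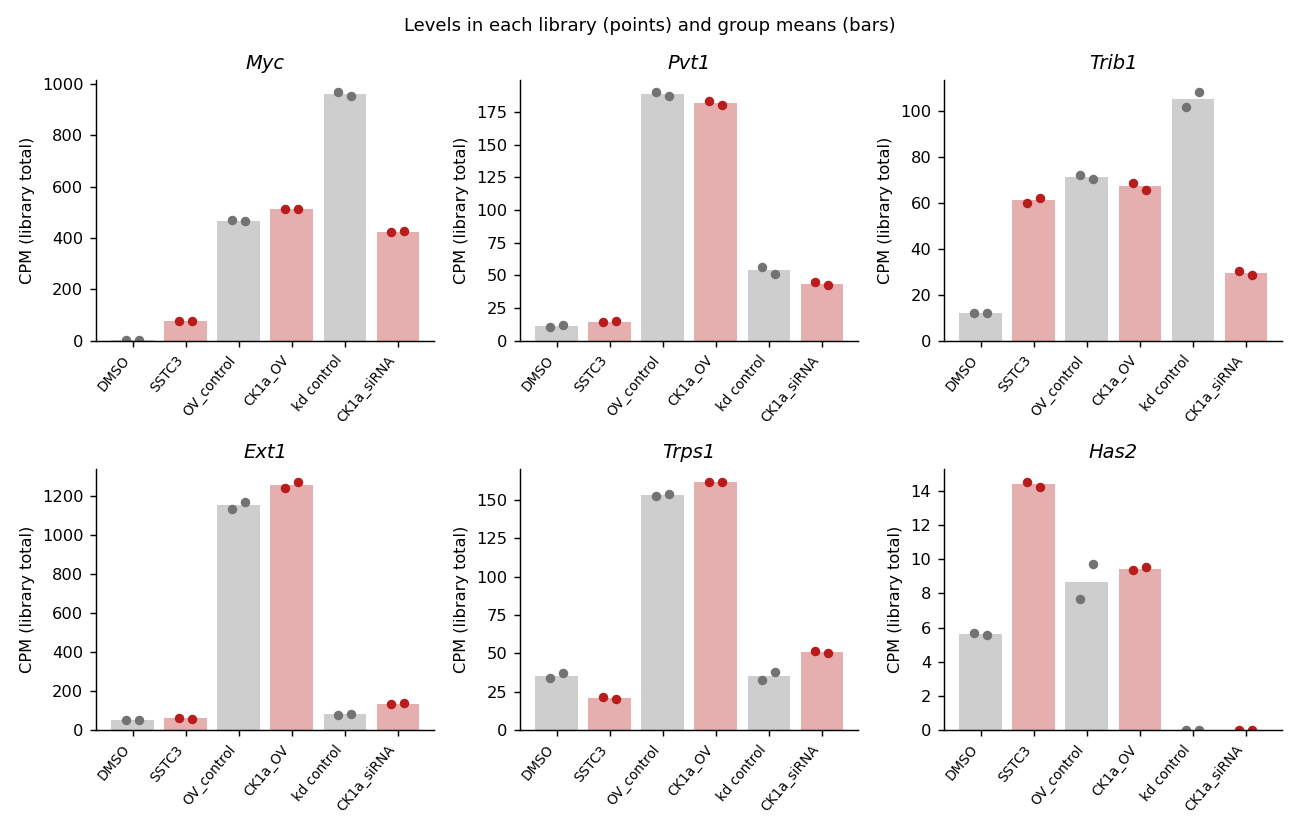
Levels of 6 members in CPM by library total. Points are the 2 libraries of a group and bars their mean, grey for controls and red for treated groups. Myc and Trib1 are higher with SSTC3 and lower with CK1a_siRNA than in their controls, Trps1 the reverse, and Ext1, Trps1 and Pvt1 are highest in both groups of the overexpression set.

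Myc and Trib1 thus rose with SSTC3 and fell with knockdown, Trps1 fell and rose, and Ext1 rose in all 3 comparisons. The comparisons used separate libraries, and whether the effects differ between them was not tested.

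From the lists around the members, 25 genes known as targets of MYC were read beside Myc itself. With SSTC3, when Myc rose, 5 of them were higher (among them Odc1, an enzyme of polyamine synthesis, 0.99) and 14 lower (such as Nop16, of ribosome assembly, -0.43). Their median was -0.11, beside 0.01 for all genes. With knockdown, when Myc fell, 16 of 24 were higher (Polr1b, of RNA polymerase I, 0.97, and nucleolin, Ncl, 0.63) and 5 lower (Nme1, -0.83, and Odc1, -0.51), with a median of 0.37 beside -0.01. Of the SSU processome, which builds the small ribosomal subunit and holds Utp23, 13 of 16 genes rose with knockdown and the other 3 did not pass. In cohesin, 6 of 10 genes fell with SSTC3, Rad21 among them, and the other 4 did not pass. Shares of all genes called in these comparisons are given above, and the lists were not tested as sets.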

How the data were processed

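The deposited files hold whole-number counts per gene for each of the 12 libraries. Per the submitters' processing notes, the authors used HISAT2 and featureCounts on mm10; the sources used here give no versions, strand setting or annotation. Symbols, positions and exon lengths came from GENCODE M21 (mm10), and reads in exons shared by genes cannot be split. The members and lists were chosen with earlier results of these data known. Set ratios used CPM by library total, a pseudocount of 0.5 CPM, a mean of at least 1 CPM and 9-gene running medians. Each comparison was fitted on its 4 libraries with edgeR 4.0.16 in R 4.3.3 (filterByExpr, TMM, robust quasi-likelihood, Benjamini-Hochberg adjustment), and SE is the absolute log2 fold change divided by the square root of F. The fits and the scan were tried on simulated data with the same spread for all genes and a block of even height. Both settings are simpler than these data, so the trial does not measure accuracy here. Levels given per library are CPM by total. Genes are named by a rule that takes all members, those past 0.5 on the log2 scale with library values, the 10 neighbours on each side and the lists; other genes between the members were named after their values were seen. Alternatives included DESeq2 1.42.0 and limma 3.58.1 voom. Replicate pairs differed by more than sampling noise (chi-square 2.29 to 3.61 per degree of freedom). Separate cultures for the replicates are not stated in the labels, so the p-values reflect only how far these libraries differ, and that spread may be technical.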

Additional observations from a re-analysis of the deposited data

How the results depend on the processing

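The median log2 ratio of the members was 1.98 with TMM and 1.99 with RLE factors, 2.23 with a pseudocount of 0.1 CPM, 2.27 for a mean of at least 5 CPM, 2.10 from control libraries alone, 2.35 over the BMDM-labelled set and 2.62 over the knockdown set, and leaving out 1 library gave 2.09 to 2.29. Single ratios that changed sign were Myc (-0.043 from controls alone, -0.50 over the knockdown set) and, over the BMDM-labelled set, Atad2 (-0.065), Has2 (-0.14) and Derl1 (0.071). The cause was not tested. The raised block spanned 75 genes by least squares. At a minimum change of 2-fold by edgeR's glmTreat, 627 genes and 3 members passed with SSTC3, 1 gene and 0 members with CK1a_OV (59 genes and 1 member, Colec10, at an unadjusted p under 0.05), and 632 genes and 2 members with knockdown. For CK1a_OV, DESeq2 called 607 genes, a fit of all 12 libraries 1188 genes and 9 members, and fits without 1 library 1065 to 1478 genes. Replicate numbers did not pair the libraries. The correlation over genes between the replicate differences of the treated and control groups was -0.016, -0.0096 and 0.005 for SSTC3, CK1a_OV and knockdown. With the replicate number as a block 7303, 1768 and 8066 genes and 20, 15 and 19 members passed in that order. Leaving aside the 2-fold minimum, 12 of 21, 7 of 15 and 15 of 19 called members passed under every alternative, in the same order. Depth limits members below about 1 CPM, of which 5 could not be tested.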
